A study of Mus musculus with 5 samples.

Results

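The Wnt genes described here are 10 of the 23951 genes of the expression table, chosen by name: the ligands Wnt3 and Wnt3a, the target and feedback genes Axin2, Sp5, Nkd1 and Dkk1, and the DNA-binding factors Lef1, Tcf7, Tcf7l1 and Tcf7l2. All 10 were found by symbol, with a status of OK in every library. RNA was sequenced in 5 libraries, 1 for each of 5 groups, all from mouse cells of the E14 line. Embryonic stem cells (ESCs), a model of naive pluripotency, grew on gelatin either with 15% fetal bovine serum and leukaemia inhibitory factor (LIF) at 1000 U/ml, or with LIF and bone morphogenetic protein 4 (BMP-4) at 10 ng/ml in a basal medium. Epiblast stem cells derived from such ESCs (EpiSCs), a model of primed pluripotency, grew in N2B27 with FGF2 at 12 ng/ml and Activin A at 20 ng/ml on dishes coated with serum. One culture was left untreated, and the others had BMP-4 at the dose used for ESCs, during 1.5 h and during 24 h. Which basal medium the ESC library with BMP-4 came from is not said in the labels, and no Wnt protein, Wnt inhibitor or Gsk3 inhibitor is named in the protocols. The ESC comparison exchanges serum for basal medium as well as adding BMP-4, so those changes cannot be told apart.

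In the canonical Wnt pathway, a secreted Wnt protein binds Frizzled and Lrp receptors, which stops a cytoplasmic complex built on Axin from marking beta-catenin for destruction. Beta-catenin then enters the nucleus and binds Lef1 or a Tcf protein on DNA. Tcf7l1 acts mainly as a repressor in pluripotent cells, and Lef1 and Tcf7 mainly as activators with beta-catenin. In the mouse embryo, Wnt3 is needed to form the primitive streak, the posterior region where mesoderm arises, and BMP-4 from neighbouring tissue acts upstream of it.

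Levels are FPKM (fragments per kilobase of transcript, scaled to the mapped fragments of a library), which account for length and so can be set side by side between genes. No group has a replicate, so no test or p-value is possible. A range after an FPKM value is the interval deposited with it. For 7 of the 10 genes (all but Lef1, Tcf7l1 and Tcf7l2) the 5 values stood in the ratio of whole read numbers, within 0.01 of a read, and the reads are given. Ratios of FPKM made from them carry a 95% interval that covers counting error only, not variation between cultures or library preparations. A gene counts as higher or lower when FPKM + 1 differs at least 2-fold, among genes whose 5 libraries average 1 FPKM or more. Of the 10 genes, 8 passed that mean, and Wnt3a and Dkk1 did not. Genes near 0 in one cell type pass only through the other, which favours differences between cell types. In bulk RNA, fewer cells that express a gene and less RNA in each cell cannot be told apart.

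The promoters of Sp5, Axin2 and Dkk1 are shown because these 3 target genes gave the largest changes with BMP-4 among the 10, with Dkk1 opposite to Sp5 and Axin2. Each run is the RefSeq window of 300 bases (GRCm38.p6), from 250 bases before the start site to 50 after, 5′ to 3′ on the strand of the gene. Capitals mark matches to the letters bound by Tcf proteins, searched on both strands as CTTTGAT, then as CTTTGAA, further as CTTTGTT and lastly as CTTTGTA. In the Sp5 window AACAAAG is a match read on the other strand. The windows are chr2:70474673-70474972 (plus strand) for Sp5, chr11:108920099-108920398 (plus strand) for Axin2 and chr19:30549447-30549746 (minus strand) for Dkk1.
Sp5: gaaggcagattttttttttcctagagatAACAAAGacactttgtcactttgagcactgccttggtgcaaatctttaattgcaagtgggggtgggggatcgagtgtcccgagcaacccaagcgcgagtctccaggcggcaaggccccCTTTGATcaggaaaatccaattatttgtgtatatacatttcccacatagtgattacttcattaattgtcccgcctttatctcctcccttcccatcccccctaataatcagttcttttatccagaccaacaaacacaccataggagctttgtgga
Axin2: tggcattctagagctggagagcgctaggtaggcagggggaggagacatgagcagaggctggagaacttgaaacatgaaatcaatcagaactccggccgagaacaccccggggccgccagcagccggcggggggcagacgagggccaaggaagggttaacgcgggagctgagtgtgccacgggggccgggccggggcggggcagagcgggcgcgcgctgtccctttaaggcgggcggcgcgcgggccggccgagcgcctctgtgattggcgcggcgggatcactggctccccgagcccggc
Dkk1: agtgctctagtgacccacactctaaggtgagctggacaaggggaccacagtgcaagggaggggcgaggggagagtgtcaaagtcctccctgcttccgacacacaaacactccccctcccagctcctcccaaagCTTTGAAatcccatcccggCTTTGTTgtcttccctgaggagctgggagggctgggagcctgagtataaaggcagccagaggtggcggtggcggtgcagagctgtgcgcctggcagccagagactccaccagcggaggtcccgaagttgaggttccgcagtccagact

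In the Sp5 window the matches began 222 and 104 bases before the start site, and in the Dkk1 window 117 and 98 bases before it. The Axin2 window held none of these letters. Among all 32851 promoter windows of that length, 16.9% held at least 1 match and 1.94% held at least 2. All 10 genes had a window, 15 windows in total, and 5 of those windows held a match. Wnt3, Lef1 and Tcf7l2 supplied the other matches. A match is a run of letters and not a measured binding site. Sp5 and Dkk1, the genes whose windows held 2 matches, moved in opposite directions after 24 h of BMP-4.

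Wnt3 separated the cell types most sharply (mm9 chromosome 11, 103635489 to 103679335, a span that in RefSeq overlaps that of Wnt9b). Its level was 0.0373 FPKM (0 to 0.135) in ESCs with serum, 0.0711 (0 to 0.236) in ESCs with BMP-4, 12.6 (3.87 to 21.4) in untreated EpiSCs, 18.0 (6.73 to 29.4) after 1.5 h of BMP-4 and 23.9 (9.74 to 38.0) after 24 h. These came from 1, 2, 391, 624 and 1005 reads. All 3 EpiSC libraries thus lay above both ESC libraries with deposited intervals apart. The ratio of FPKM between untreated EpiSCs and ESCs with serum was 338 (counting interval 60.4 to 13400), wide because 1 read stands below it. Within EpiSCs the levels were ordered by time with BMP-4. The 24 h level was 1.89 times the untreated one (1.68 to 2.13), and the 1.5 h level 1.43 times (1.26 to 1.62). The deposited intervals of the 3 EpiSC libraries overlapped, and the difference of log2(FPKM + 1) at 24 h, 0.87, stayed under the 2-fold limit.

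Wnt3a, a ligand of the later streak and tail bud, was close to absent (chromosome 11, 59061544 to 59104253). It had 0.213 FPKM (5 reads) in ESCs with serum and 0.163 FPKM (6 reads) in EpiSCs after 24 h. It was listed at 0 in the other 3 libraries, where 3 reads would be worth 0.122, 0.111 and 0.0992 FPKM for ESCs with BMP-4, untreated EpiSCs and EpiSCs after 1.5 h. Its levels therefore show no separation of the groups at this depth.

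The other ligands show what Wnt3 stood among. All 19 mouse Wnt genes summed to 3.05 FPKM in ESCs with serum, 2.28 in ESCs with BMP-4, 31.3 in untreated EpiSCs, 34.6 after 1.5 h and 62.6 after 24 h. Wnt3 made up 40.3%, 52.2% and 38.2% of the sum in the 3 EpiSC libraries in that order. Wnt8a, a ligand of the posterior epiblast, held 33.9%, 25.0% and 29.9% of it. Its levels were 0.166 and 0.0789 FPKM in ESCs, then 10.6 (1.33 to 19.9), 8.66 (0.849 to 16.5) and 18.7 (4.78 to 32.7) in EpiSCs, from 2, 1, 148, 135 and 355 reads. The 24 h level of Wnt8a was 1.76 times the untreated level (1.45 to 2.15). Wnt5b, best known for signalling without beta-catenin, stood at 0.284 and 0.866 FPKM in ESCs and at 3.50, 2.97 and 13.0 FPKM in EpiSCs. It was the only Wnt gene at least 2-fold higher after 24 h than before BMP-4 (log2 difference 1.64, overlapping intervals), of 3 that passed the mean filter, where 0.654% of all genes were higher. Untreated EpiSCs had all 3 at a higher level than ESCs with serum (11.6% of all genes) and ESCs with BMP-4 (11.0%). Wnt3, Wnt8a and Wnt5b were under 1 FPKM in both ESC libraries and passed the filter only through EpiSCs, which favours that count.

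**Figure D1:**
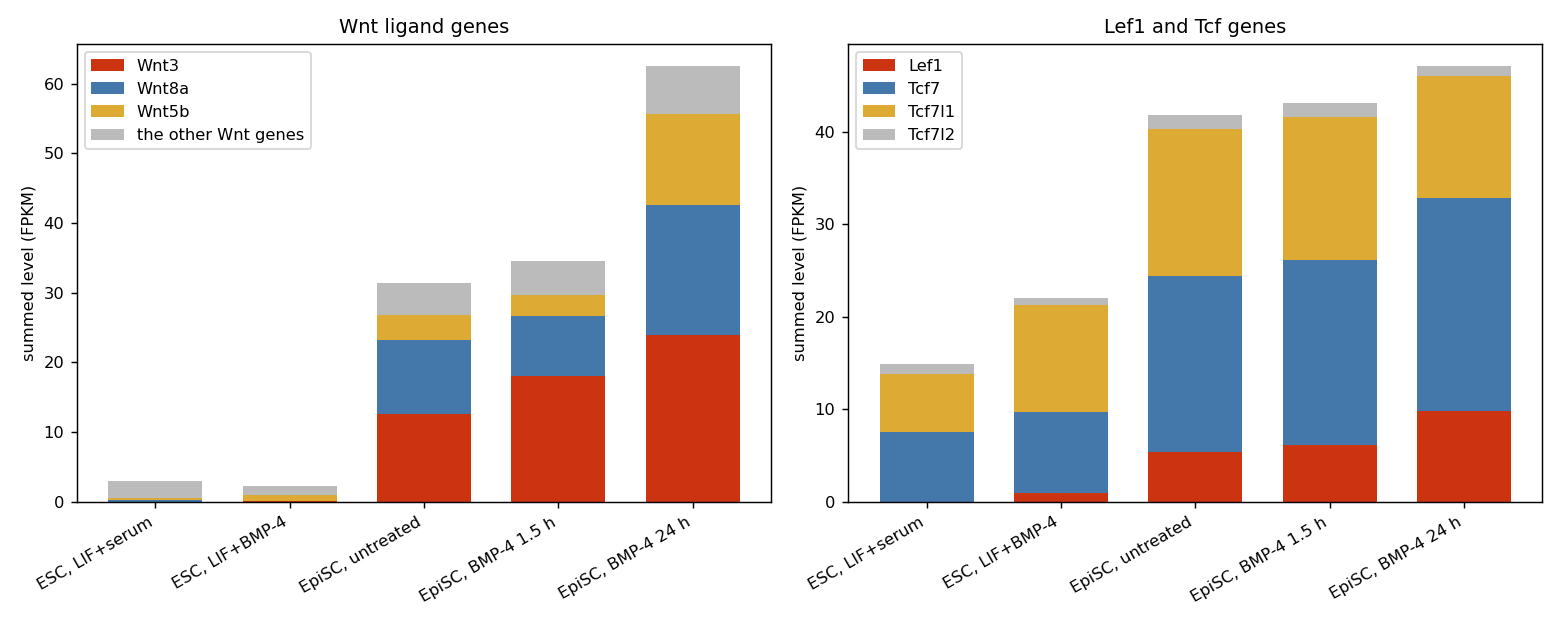
Summed FPKM (vertical axes) in the 5 libraries, 1 bar a library, split on the left into Wnt3, Wnt8a, Wnt5b and the other Wnt genes and on the right into Lef1, Tcf7, Tcf7l1 and Tcf7l2. The ligand sum went from 3.05 FPKM in ESCs with serum to 62.6 in EpiSCs after 24 h of BMP-4, and the Lef1 and Tcf sum from 14.9 to 47.1.

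The DNA-binding factors differed in make-up as well as level. Lef1 (chromosome 3, 130813215 to 130927275) was listed at 0 in ESCs with serum. It stood at 0.940 FPKM (0 to 2.60) in ESCs with BMP-4, 5.34 (0.411 to 10.3) in untreated EpiSCs, 6.15 (0.498 to 11.8) after 1.5 h and 9.82 (1.60 to 18.0) after 24 h. Its EpiSC libraries were all above its ESC libraries, and the interval at 24 h still overlapped the untreated one (log2 difference 0.77). Tcf7 (chromosome 11, 52066106 to 52095752) had 7.54 FPKM (0.802 to 14.3), 8.82 (1.73 to 15.9), 19.0 (6.24 to 31.8), 20.0 (6.69 to 33.3) and 23.0 (7.92 to 38.1) in the same order of libraries. The reads of Tcf7 were 140, 172, 408, 480 and 671, and its EpiSC level before BMP-4 was 2.52 times that of ESCs with serum (2.08 to 3.08). In RefSeq the span of Tcf7 overlaps that of Skp1, and the sources used here do not say whether counting used strand.

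Tcf7l1, the repressor, was also higher in EpiSCs and did not follow Lef1 after BMP-4 (chromosome 6, 72576365 to 72739039). It had 6.27 FPKM (0.701 to 11.8) in ESCs with serum, 11.5 (2.85 to 20.1) in ESCs with BMP-4, 16.0 (5.35 to 26.6) in untreated EpiSCs, 15.5 (5.07 to 25.9) after 1.5 h and 13.2 (3.55 to 22.9) after 24 h. All of these intervals overlapped. Among the 10 genes, the difference of Tcf7l1 between the ESC libraries (log2 0.78) was second in size to that of Lef1 (0.96). Tcf7l2 (chromosome 19, 55816300 to 56008145) was low throughout, between 0.844 FPKM in ESCs with BMP-4 and 1.50 in EpiSCs after 1.5 h, with every interval reaching 0.

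As a share of the 4 factors together, Lef1 made up 0%, 4.26%, 12.8%, 14.3% and 20.8% of the FPKM in ESCs with serum, ESCs with BMP-4, untreated EpiSCs, 1.5 h and 24 h. Tcf7 lay between 40.0% and 50.7% in all libraries. Tcf7l1 went from 42.2% and 52.0% in the ESC libraries to 38.2%, 35.9% and 28.0% in the EpiSC libraries. The ratio of Lef1 plus Tcf7 to Tcf7l1 was 1.20 and 0.851 in ESCs and 1.52, 1.69 and 2.48 in EpiSCs. With each gene at the bounds of its interval that ratio could lie between 0.416 and 15.8 after 24 h and between 0.250 and 7.86 before BMP-4, so the deposited intervals do not separate the libraries. The bar plot of ligands and factors by library shows this make-up.

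Axin2 encodes a scaffold of the destruction complex and is itself induced by beta-catenin, so it serves as a common readout of the pathway (chromosome 11, 108781663 to 108812095). Its levels were 3.78 FPKM (0.366 to 7.19) in ESCs with serum and 3.75 (0.401 to 7.10) in ESCs with BMP-4. In EpiSCs they were 7.31 (2.10 to 12.5) untreated, 6.99 (1.83 to 12.2) after 1.5 h and 20.4 (8.74 to 32.1) after 24 h. The reads were 141, 147, 315, 337 and 1196. The 24 h level was the highest: its interval is apart from those of both ESC libraries and overlaps those of the other EpiSC libraries. The 24 h level was 2.79 times the untreated one (2.46 to 3.17), whereas the 1.5 h level was 0.957 times (0.819 to 1.12), an interval that holds 1. Between the ESC libraries the ratio was 0.993 (0.783 to 1.26).

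Sp5 encodes a zinc finger factor that is a direct target of beta-catenin (chromosome 2, 70312980 to 70315783). It had 0.747 FPKM (0 to 1.83) in ESCs with serum, 0.219 (0 to 0.680) in ESCs with BMP-4, 9.25 (1.78 to 16.7) in untreated EpiSCs, 6.45 (0.757 to 12.2) after 1.5 h and 20.6 (6.80 to 34.4) after 24 h. These stood on 13, 4, 186, 145 and 563 reads. The EpiSC libraries were all above the ESC libraries, and the untreated interval (from 1.78) overlapped that of ESCs with serum (to 1.83) narrowly and lay above that of ESCs with BMP-4. The ratio of FPKM was 2.23 at 24 h (1.88 to 2.64) and 0.698 at 1.5 h (0.558 to 0.872), so by counting error alone Sp5 was lower at the early time and higher at the late time. The deposited intervals overlapped at both times.

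Nkd1 encodes a feedback inhibitor that binds Dishevelled (chromosome 8, 91045243 to 91118786). Its levels were 0.159 FPKM (6 reads) and 0.378 (15 reads) in ESCs with serum and with BMP-4, then 2.26 (99 reads), 2.83 (138 reads) and 5.01 (298 reads) in untreated, 1.5 h and 24 h EpiSCs. The 24 h level was 2.21 times the untreated level (1.76 to 2.81), and the 24 h interval (1.12 to 8.91) lay above both ESC intervals. At 1.5 h the ratio was 1.25 (0.957 to 1.63).

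Dkk1, a secreted antagonist that binds Lrp5 and Lrp6, is also a Wnt target, and went the other way after BMP-4 (chromosome 19, 30620374 to 30623986). Its levels were 0.214 FPKM (4 reads) and 0.0510 (1 read) in ESCs, then 2.32 (50 reads), 1.70 (41 reads) and 0.375 (11 reads) in untreated, 1.5 h and 24 h EpiSCs. The untreated level was 6.18 times that at 24 h (3.18 to 13.2), with deposited intervals of 0 to 4.95 and 0 to 1.16 that overlapped. At 1.5 h the ratio to untreated was 0.734 (0.473 to 1.13), an interval that holds 1. With the log2 difference of -1.27 at 24 h, Dkk1 would meet the 2-fold limit but misses the mean filter at 0.931 FPKM.

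**Figure D2:**
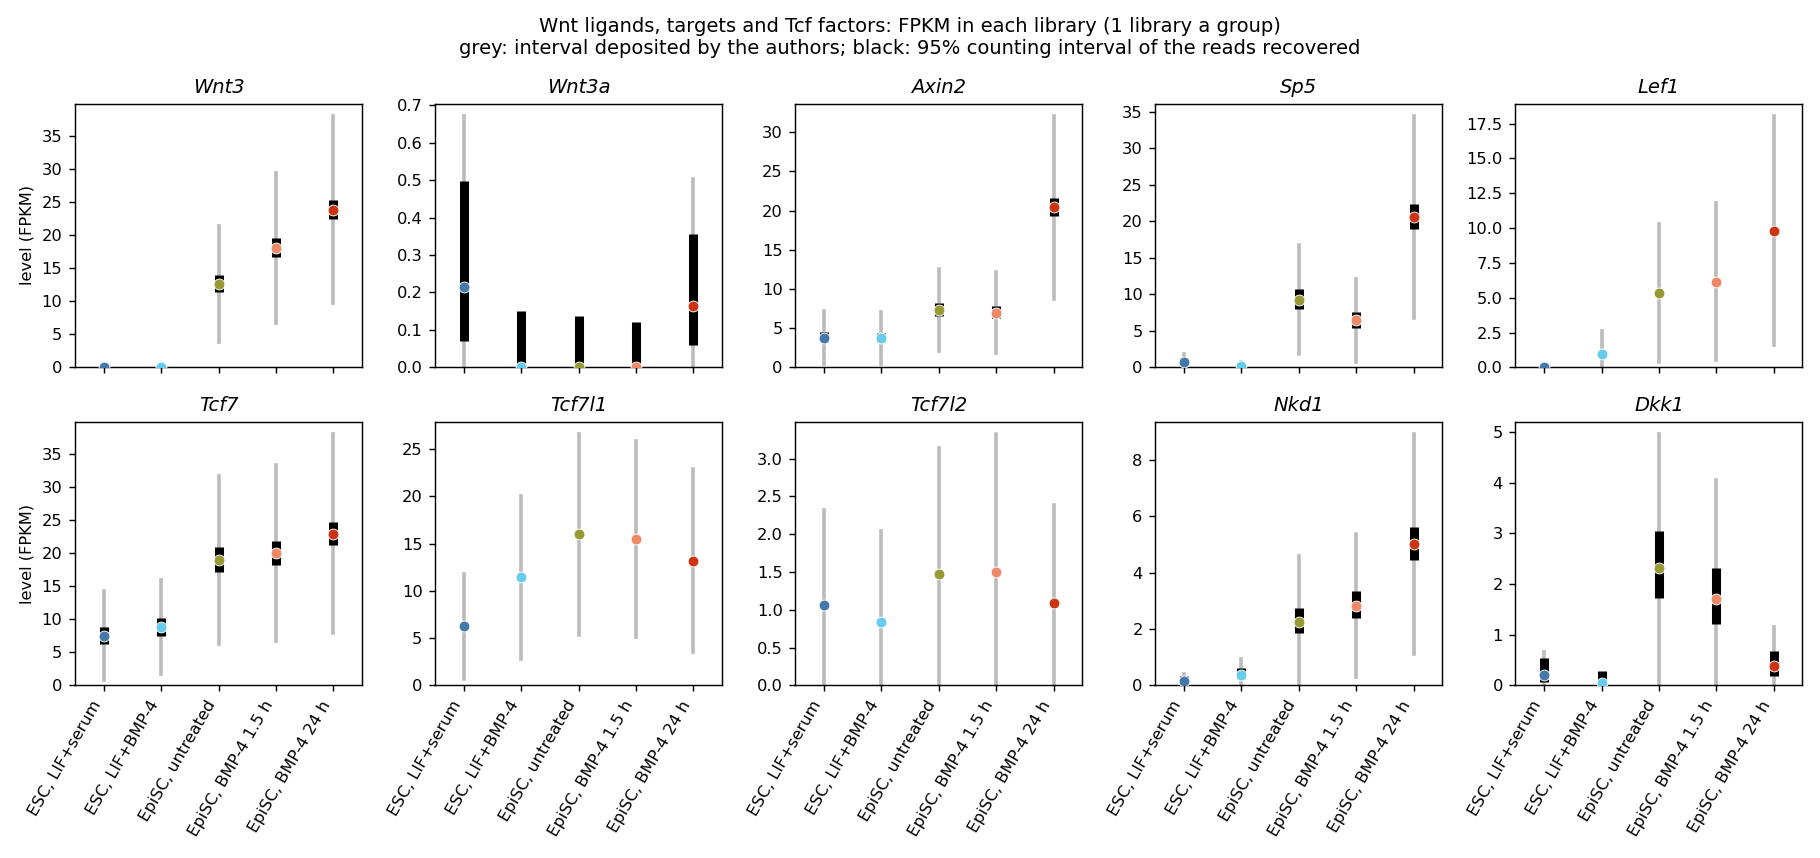
FPKM of the 10 genes (vertical axis, a scale of its own in each panel) in the 5 libraries; points are the values, grey bars the intervals deposited by the authors and black bars the counting intervals for the 7 genes with whole reads. Axin2 stands at 3.75 to 7.31 FPKM in 4 libraries and at 20.4 in EpiSCs after 24 h of BMP-4, whereas Dkk1 is at 2.32 untreated and 0.375 after 24 h.

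Set side by side, 9 of the 10 genes had all EpiSC libraries above both ESC libraries (all but Wnt3a), Dkk1 among them. For Tcf7l2 the margin was narrow, with at most 1.06 FPKM in ESCs and at least 1.09 in EpiSCs. The deposited intervals of Tcf7, Tcf7l1, Tcf7l2 and Dkk1 overlapped in every pair of libraries. Among 11005 genes past the mean filter, which Dkk1 and Wnt3a did not pass, 34.9% did so and 35.7% had both ESC libraries on top. Untreated EpiSCs were at least 2-fold higher than ESCs with serum in Wnt3, Lef1, Sp5, Nkd1, Tcf7 and Tcf7l1, 6 of the 8 that passed the mean, against 11.6% of all genes tested, and in 0 were they lower (9.55% of all). Against ESCs with BMP-4 the count was 5 higher (11.0% of all) and 0 lower (10.0%), without Tcf7l1. Wnt3, Lef1, Sp5 and Nkd1 were under 1 FPKM in both ESC libraries and passed the filter only through EpiSCs, which favours both counts. Deposited intervals were apart for Wnt3 and Lef1 against ESCs with serum (5.53% of all genes) and for Wnt3 and Sp5 against ESCs with BMP-4 (5.51%). Lef1 was listed at 0 in ESCs with serum with an interval of 0 width, and its intervals overlapped against ESCs with BMP-4. In the order of its 5 levels, Wnt3 alone among the 10 had neighbouring libraries with deposited intervals apart, ESCs with BMP-4 and untreated EpiSCs.

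Between the ESC libraries 0 of the 8 were higher with BMP-4 (2.61% of all genes) and 0 lower (1.28%). After 1.5 h of BMP-4 in EpiSCs the counts were again 0 and 0, against 0.236% and 0.182% of all genes, and at a limit of 1.5-fold they were also 0 and 0 (0.681% and 0.500%). After 24 h Axin2 and Sp5 were higher, 2 of 8 against 0.654% of all genes, and 0 were lower (0.527%). At 1.5-fold, 5 of the 8 were higher (Wnt3, Axin2, Sp5, Lef1 and Nkd1; 2.19% of all) and 0 lower (1.75%). Directly against 1.5 h, Axin2 and Sp5 were the 2 higher genes (0.609% of all), with ratios of FPKM of 2.92 (2.58 to 3.30) and 3.19 (2.65 to 3.86), and 0 were lower (0.427%). At 1.5-fold, Axin2, Sp5, Lef1 and Nkd1 were the 4 higher genes there (1.84% of all) and 0 were lower (1.51%). Deposited intervals were apart for 0 of the 8 between the ESC libraries (0.209% of all), at 1.5 h (0.0273%), at 24 h against untreated (0.0818%) and at 24 h against 1.5 h (0.0545%). The comparisons with untreated EpiSCs share that library, as do both comparisons with the 24 h library.

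**Figure D3:**
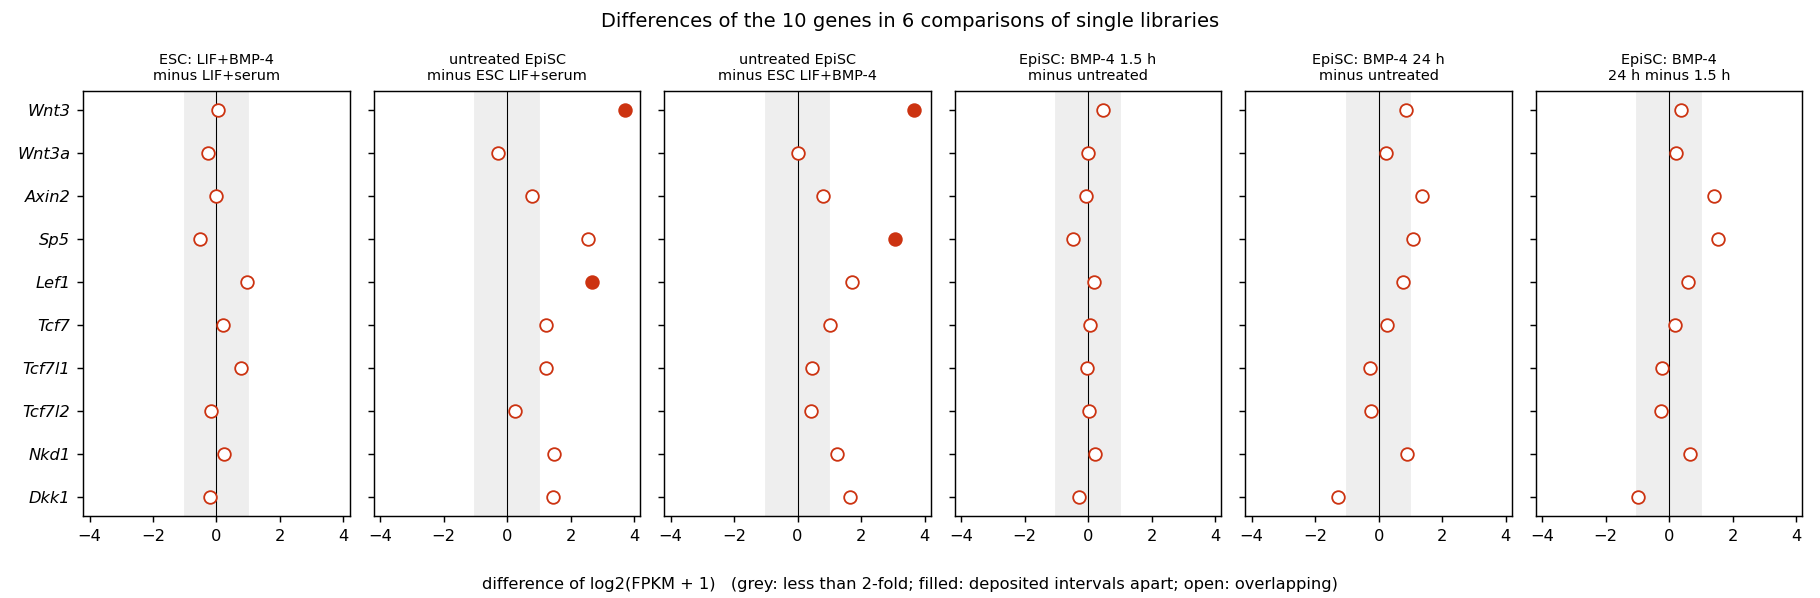
Differences of log2(FPKM + 1) (horizontal axes) of the 10 genes (rows) in the 6 comparisons (panels), with the zone under 2-fold in grey; filled points have deposited intervals apart, and Lef1 is filled where ESCs with serum are listed at 0 with an interval of 0 width. Wnt3 reaches 3.72 and 3.67 between the cell types, no point leaves the grey zone at 1.5 h, and Axin2 (1.37) and Sp5 (1.07) leave it upward and Dkk1 (-1.27) downward at 24 h.

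The activity of the Wnt pathway was not measured, only RNA levels of genes known as its targets. A wider list of 20 Wnt target genes includes 6 of the 10 genes (Axin2, Sp5, Lef1, Tcf7, Nkd1 and Dkk1). Of the 14 that passed the mean, untreated EpiSCs had 8 at higher and 1, Notum, at lower level than ESCs with serum (median log2 difference 1.25, and -0.01 over all genes, of which 11.6% were higher and 9.55% lower). After 24 h of BMP-4, 4 were higher than before and 0 lower (median 0.78, and 0.00 over all genes, of which 0.654% were higher and 0.527% lower): T, Cdx2, Axin2 and Sp5. After 1.5 h none of the 14 was (median 0.00, all genes 0.00). Among the targets higher in untreated EpiSCs, Sp5, Lef1, Nkd1, T, Cdx2 and Mixl1 were under 1 FPKM in both ESC libraries. They passed the filter only through EpiSCs, which favours the count between cell types. T, the Brachyury factor of the streak, stood at 11.9 FPKM (2.78 to 20.9) untreated, 10.6 (2.14 to 19.1) after 1.5 h and 89.2 (44.4 to 134) after 24 h, from 232, 232 and 2373 reads, and its 24 h interval lay above the others. Cdx2, a posterior homeobox factor, went from 1.55 and 1.48 FPKM to 13.7, from 32, 34 and 383 reads. T and Cdx2 also serve as streak and mesoderm markers, and the part of Wnt signalling in their levels was not tested.

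Not all targets followed Axin2 in every comparison. Notum, a secreted enzyme that inactivates Wnt proteins, was higher in ESCs (6.47 and 6.85 FPKM) than in EpiSCs (0.363, 0.371 and 1.72). It had 7 reads in untreated EpiSCs and 45 after 24 h, a ratio of FPKM of 4.73 (2.12 to 12.4). Notum thus went against Axin2 between the cell types and in the same direction after 24 h of BMP-4. Lgr5, an R-spondin receptor with a mean below 1 FPKM, had 57 reads untreated and 12 after 24 h, the untreated level being 6.46 times the later one (3.43 to 13.2). Ccnd1 and Myc lay within 2-fold at both times. Cdx1, below the mean, was at 2.04 FPKM in ESCs with serum and under 0.5 in the other 4 libraries.

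**Figure D4:**
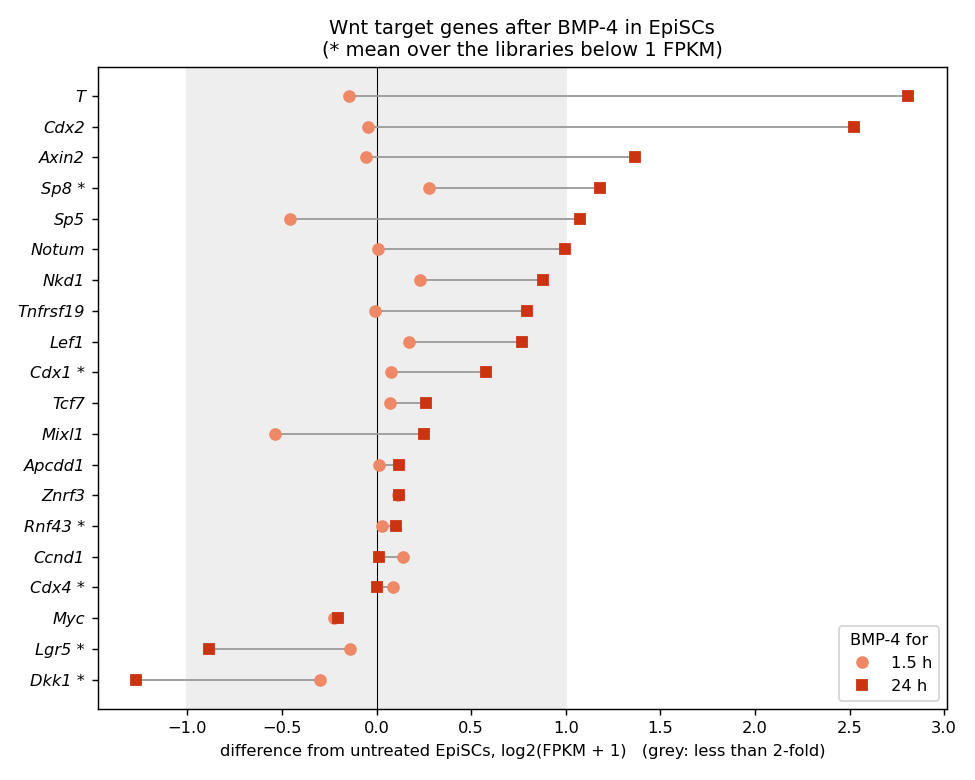
Differences from untreated EpiSCs of log2(FPKM + 1) (horizontal axis) for 20 Wnt target genes (rows) after 1.5 h (circles) and 24 h (squares) of BMP-4, 1 library each; grey marks less than 2-fold and asterisks genes with a mean below 1 FPKM. At 24 h T (2.81), Cdx2 (2.52), Axin2 (1.37), Sp8 (1.18) and Sp5 (1.07) lie beyond 2-fold upward and Dkk1 (-1.27) downward, while all 20 lie within it at 1.5 h.

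Upstream of the targets, genes for Wnt secretion and receptors also differed. Of 16 that passed the mean, untreated EpiSCs had 8 at higher and 2 at lower level than ESCs with serum (median 0.98), where 11.6% and 9.55% of all genes were. Fzd5, a Frizzled receptor, was lower with intervals apart (18.9 and 3.87 FPKM), while the receptor Fzd2 was higher (0.920 and 6.04). After 24 h of BMP-4, 4 were higher and 0 lower (median -0.01), against 0.654% and 0.527% of all genes. These were Fzd10, a Frizzled receptor (14.6 and 31.8 FPKM), Wls, the carrier that brings Wnt proteins to the surface (3.37 and 8.05), Porcn, the enzyme that adds their lipid (0.397 and 1.80), and Rspo3, an R-spondin that raises receptor levels (1.72 and 4.64). The intervals overlapped for all 4. Each lay close to the limit, with FPKM + 1 between 2.00-fold (Porcn) and 2.10-fold (Fzd10) higher. Against the 1.5 h library, 1 of the 16 was higher and 0 were lower (0.609% and 0.427% of all genes). Fzd2, Fzd6, Fzd8, Ror1 and Rspo3, all higher in untreated EpiSCs, were under 1 FPKM in both ESC libraries. They passed the filter only through EpiSCs, which favours the count between cell types.

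Over all genes 0.654% were higher and 0.527% lower at 24 h, the shares to set beside the next counts. Among genes listed as antagonists outside the cell, 11 passed the mean. After 24 h 2 of them were lower and 0 higher (median -0.02). These were Cer1, with intervals apart (35.0 and 1.31 FPKM), and Sfrp1, a Wnt-binding decoy (21.2 and 7.23 FPKM, overlapping). Cer1 binds Nodal and BMP proteins, and an action of mouse Cer1 on Wnt proteins is not shown by these data. In the destruction complex and its partners, Axin2 was the single gene of 20 that was higher at 24 h, with 0 lower. Ctnnb1, which encodes beta-catenin itself, lay between 203 and 232 FPKM in the 5 libraries. Of the 19 Tcf factors and partners, 0 were higher or lower at 24 h (median 0.04). The co-repressor gene Aes, whose product lacks the repression domains of its Tle relatives, was lower in untreated EpiSCs than in ESCs with serum, with intervals apart (27.0 and 158 FPKM).

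A list of 7 genes that Tcf7l1 is known to repress in ESCs was lower in EpiSCs than in ESCs with serum in all 7 cases (median -5.27), where 9.55% of all genes were lower. Tcf7l1 itself was higher. Esrrb stood at 132 FPKM in ESCs with serum and 0.706 in untreated EpiSCs, and Klf2 at 125 and 2.28. These genes also belong to the naive network and separate the cell types by choice, so the part of Tcf7l1 in this was not tested. After 24 h of BMP-4, Tbx3 alone of the 7 was higher (0.0636 and 1.86 FPKM) and 0 were lower, against 0.654% and 0.527% of all genes.

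The labelled cell types showed in their markers: 10 naive markers summed to 1650 to 1855 FPKM in the ESC libraries and 9.89 to 11.3 in the EpiSC libraries, and 10 primed markers to 86.1 to 96.9 and 531 to 811. Zfp42 made up most of the naive sum in ESCs (1227 to 1336 FPKM). Within EpiSCs the primed sum was 811 untreated, 699 after 1.5 h and 531 after 24 h. At 24 h, 4 of the 10 primed markers (Fgf5, Otx2, Sox3 and Lefty1) were lower than before BMP-4 and 0 were higher (median -0.65). Over all genes 0.527% were lower and 0.654% higher at that time. Between 8.50 and 13.4 M reads, estimated from steps of single reads in low values, stood behind each library, with the 24 h library the deepest. That estimate is approximate, as it rests on the most frequent step, held by 81 of 600 low genes with a single transcript. It also takes FPKM as scaled to the reads of a library, which the sources used here do not state. Markers of other cell types moved beside the Wnt genes. The 10 streak and mesoderm markers, which include T and Cdx2, summed to 40.5 FPKM untreated, 34.7 after 1.5 h and 150 after 24 h. In ESCs they summed to 2.20 to 3.80. T made up most of the sum at 24 h (89.2 FPKM, and 11.9 untreated). At or above 1 FPKM were 4 of the 10 untreated and 6 at 24 h. Mesp2, Tbx6, Msgn1 and Hand1 were below 1 FPKM at 24 h, though 0 of the 10 were listed at 0 in that library. The 10 endoderm markers, which include Cer1, summed to 57.2, 42.6 and 11.0 FPKM in EpiSCs and 15.3 to 16.7 in ESCs. Of 6 that passed the mean, Cer1 and Foxa2 (13.2, 4.06 and 1.86 FPKM) were lower at 24 h and 0 were higher. The shares of all genes were 0.527% and 0.654%. Cer1 and Foxa2 carried nearly all of the difference in the endoderm sum. Sox17 (3.63 untreated and 1.87 at 24 h) and Gata6 (1.89 and 1.06) were lower within the 2-fold limit, as were Dab2 and Lama1. Gata4 went the other way within that limit (1.59 and 2.13). Ttr, below the mean filter, was listed at 0 untreated and stood at 1.16 at 24 h. The number of endoderm markers at or above 1 FPKM was 6 untreated and 7 at 24 h. Afp was at 0 untreated and at 1.5 h, and Sox7 at 0 untreated and at 24 h. The trophoblast markers summed to 97.4 FPKM untreated and 120 at 24 h, mostly from Krt8 (81.0 and 99.2). Of 5 past the mean, Krt7 alone was lower (5.25 and 1.00) and 0 were higher, against 0.527% and 0.654% of all genes. Tfap2c (6.10 and 12.7) and Ascl2 (2.28 and 3.74) were higher within the 2-fold limit, and Esx1 was lower within it. Gata3, below the mean filter, stood at 0.156 and 0.873, and Tpbpa was at 0 in all libraries. Neural (175 and 155) and fibroblast (28.4 and 27.1) sums are given in the same order, with Neurog2 and Dcn at 0 in every library. Single genes made up most of these sums, Nes (146 and 134) the neural and Twist1 (21.6 and 20.9) the fibroblast. The part of these cell types in the Wnt results was not tested.

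Genes with the most similar profiles were found by the root mean square distance between centred log2(FPKM + 1) values over the 5 libraries, among 8242 genes that reached 5 FPKM. For Axin2 they were BC023829 (distance 0.0865), Zfp964 (0.148) and Ccnd2 (0.206), the last a cyclin at 1.48, 0.780, 1.89, 2.51 and 7.12 FPKM. For Sp5 they were the peptide hormone gene Apln (0.207), Pla2g7 (0.240) and Atf3 (0.281). For Lef1 they were Peg3 (0.173), Pam (0.180) and Tnfrsf19 (0.187), a receptor gene that is on the target list. For Wnt3 they were Irgm1 (0.123), Vrtn (0.187) and Mogat2 (0.226). For Tcf7 the nearest was Grik3 (0.0214) and for Nkd1 Atp1b2 (0.0787). With 5 libraries many genes share such a profile, and the distance is a description.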

How the data were processed

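RNA was sequenced in 5 libraries of 5 groups. The deposited FPKM values and their lower and upper bounds, also in FPKM, come from TopHat and Cufflinks 2.0.13 as run by the authors on mm9, per the submitters' processing notes. Cufflinks defines such bounds as 95% limits. Annotation, strand setting and scaling between libraries: not given in the sources used here. Differences of log2(FPKM + 1) were taken for 6 comparisons where the 5 libraries averaged 1 FPKM or more and the status was OK, with a 2-fold limit and no test, because each group held 1 library. The 10 genes, 7 pathway lists of 123 genes and the marker lists were chosen with earlier results of these data known. Named genes are the 10, the list members furthest apart (up to 4 each way per list and comparison), and T, Cdx1, Cdx2 and Ctnnb1; Lgr5, Notum at 24 h, Sp8, Ccnd1, Myc and Foxa2 were named after their values were seen. Reads were recovered, a step added after the data were seen, from the relative worth of 1 read (1.57, 1.50, 1.36 and 1.22 times that of the 24 h library, in the order of the groups), taken as the smallest whole numbers in the ratio of a gene's values. This worked for 72 of the 123 pathway genes and was tested on simulated data. Counting intervals are exact (Poisson for reads, Clopper-Pearson for ratios), and PCR copies are not separate molecules. Positions are mm9, written from 1. Python 3.11.15, numpy 2.4.6 and pandas 2.3.3 were used. No value column was left unmapped. Some results on profile likeness are not reported here.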

Additional observations from a re-analysis of the deposited data

How the results depend on the processing

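No paired analysis was possible because no group had more than 1 library. The number of the 10 genes at least 2-fold apart moved by more than 1.5 times under some settings. For ESCs with BMP-4 against serum it was 0 as reported, 2 with a pseudocount of 0.1 FPKM, 1 when libraries were scaled to equal summed FPKM, and 2 at a 1.5-fold limit. With a pseudocount of 5 FPKM it was 3 in place of 6 for untreated EpiSCs against ESCs with serum, 2 in place of 5 against ESCs with BMP-4, and 1 in place of 2 for 24 h against untreated. A mean of at least 5 FPKM left 3 of the 5 against ESCs with BMP-4, with 5 of the 10 genes tested. A 1.5-fold limit gave 5 in place of 2 at 24 h and 4 in place of 2 for 24 h against 1.5 h. A larger pseudocount, a higher mean and a lower limit change these counts by construction; the cause of the others was not tested. Of 270 recomputed differences of single genes, 0 changed the sign of a called value and 261 stayed within the range their deposited intervals allow. Scaling to equal sums shifted the median of all genes by 0.12 (log2) for untreated EpiSCs against ESCs with serum. Depth limits Wnt3a, Dkk1 and the ESC levels of Wnt3 and Sp5, which stand on few reads.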
